A study of Mus musculus with 52 samples.

Results

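Gene expression in the wild-type mouse cortex was compared between embryonic day 14 (E14) and postnatal day 30 (P30). The 8 libraries, of 52 in the series, were chosen by their labels: 4 from the whole cortex of wild-type embryos at E14 and 4 from the frontal cortex of wild-type mice at P30. All 8 are labelled wild type, with no treatment and no strain named in the labels. The series compares such animals with mice lacking Mir146, the gene of the microRNA miR-146a (knockout, KO), at E14, P30 and postnatal day 60 (P60), also in amygdala and hippocampus. Per its design text the animals came from different mothers, and that text differs from the sample labels in region and age. It names a sensory cortex at the later ages where the labels name frontal cortex, and the stages E14.5, P30 and P6 where the labels give E14, P30 and P60. The sample labels were followed.

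At E14 the wall of the mouse cortex is made largely of dividing progenitors and of young neurons on their way to the cortical plate. Radial glia divide at the ventricle and give rise to neurons directly or through intermediate progenitors, and the deep layers are made before the upper ones. By the fifth postnatal week neurogenesis has ended, synapses have formed and are being refined, astrocytes have matured, and oligodendrocytes are wrapping axons in myelin.

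RNA with a poly-A tail was sequenced as stranded read pairs. Depth, recovered from the deposited values, was 8709673 to 9469214 reads per library at E14 and 4870435 to 7349642 at P30. Levels are given as RPM (reads per 1000000 reads) after scaling the 8 libraries together. Age, table and dissected region coincide, and depth did not overlap between the ages, so the parts of these in a difference cannot be told apart. These are bulk samples, in which more cells of a type and more RNA per cell cannot be told apart either. Xist and Y-linked genes gave 3 females and 1 male at E14 and 1 female and 3 males at P30. Pearson correlations of log2 levels across genes were 0.9858 to 0.9937 within E14, 0.986 to 0.9896 within P30 and 0.7297 to 0.7645 between the ages.

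Cortical markers were present at both ages, beside markers of neighbouring tissues. Tbr1, a transcription factor of deep-layer neurons, was at 310 to 330 RPM at E14 and 187 to 230 at P30. At E14, 12 ganglionic eminence genes summed to 813 to 1190 RPM and 11 genes used as thalamic markers to 982 to 1180. At P30, 13 striatal genes summed to 851 to 1890 RPM, highest in libraries 2 and 4. The choroid plexus list reached 389 RPM in E14 library 4 and 327 in P30 library 2, against 43.5 to 110 in the other 6. Meningeal genes ranged from 77.1 to 399 at E14, highest in library 4, and from 138 to 285 at P30. The part of these markers' tissues in the results below was not tested.

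Of 18679 genes tested, 15003 differed between the ages (80.3%, adjusted p below 0.05 with limma), with 36.1% higher and 44.2% lower at P30. Because so many genes differed, a second test asked for a change beyond 2-fold (limma's treat, adjusted p below 0.05), and "rose" and "fell" refer to it below. By that test 5490 genes changed (29.4%), of which 3038 rose (16.3%) and 2452 fell (13.1%). Among these genes the level at P30 was at least 10-fold higher in 1027 and at least 10-fold lower in 504. This count used the ratio of means, or its bound where a group had no read. Genes with some reads but no more than 3 in either group were left out of it. In 14070 genes (75.3%) no E14 library overlapped with a P30 library. The median log2 change over all genes tested was -0.14 and moved to -0.34 when libraries were scaled by total reads alone, under which 2608 genes rose and 3197 fell. Which direction held more genes thus changed with the scale.

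**Figure D1:**
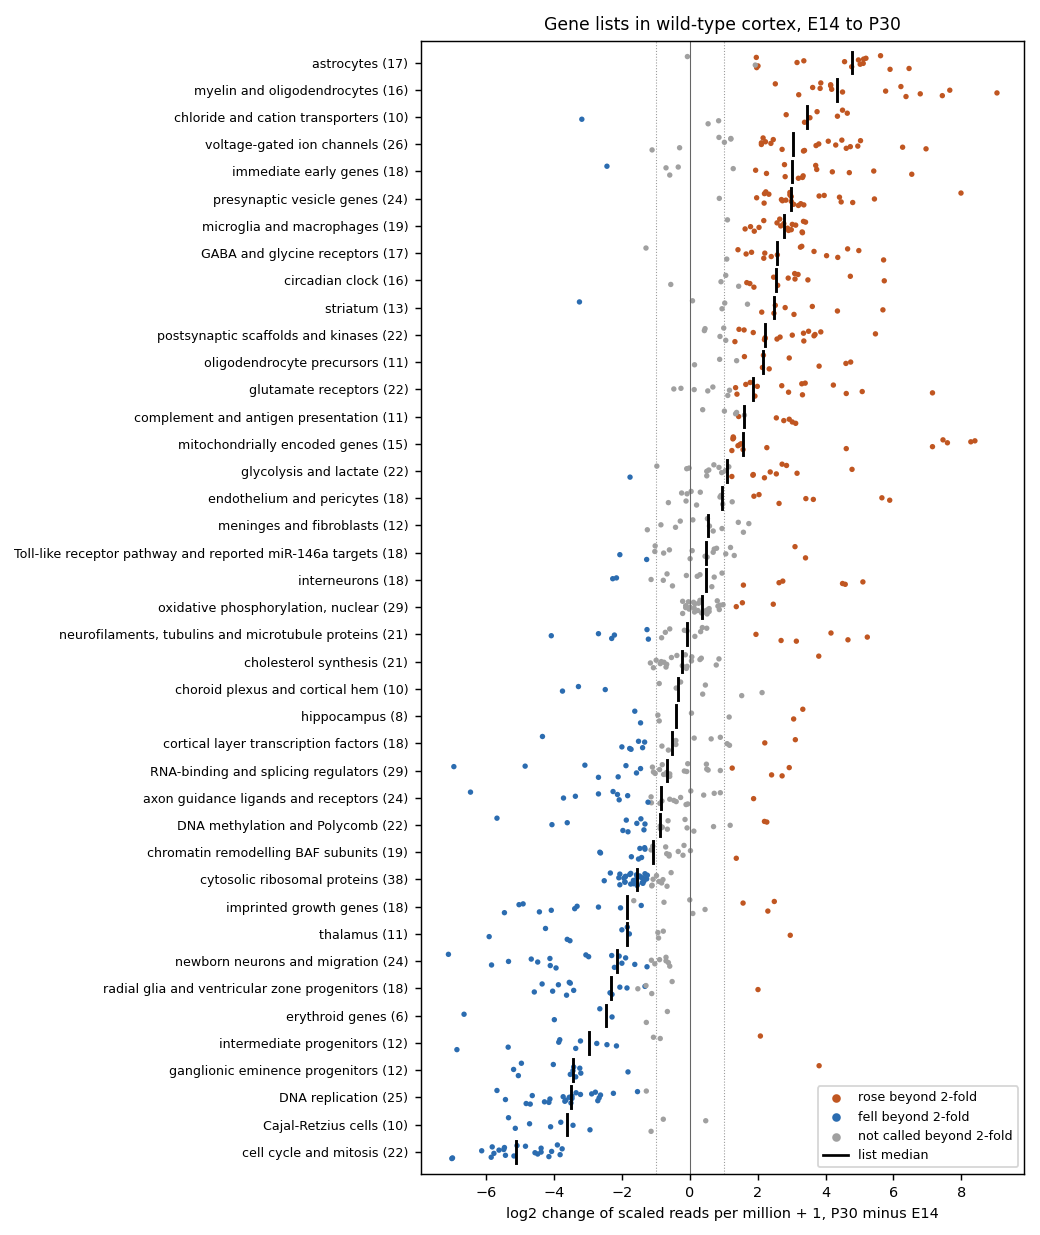
Log2 change from E14 to P30 of each tested member of 41 gene lists, with the number of members in brackets. Points are genes, coloured by whether they changed beyond 2-fold, and the black bar is the list's median, which runs from -5.13 for cell cycle genes to 4.77 for astrocyte genes.

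The largest rises belonged to myelin, to dendrites and synapses, and to the mitochondrial genome. Mobp, a protein of compact myelin, was at 0.213, 0.818, 0.902 and 0.681 RPM in the E14 libraries and at 1147, 1083, 591 and 762 at P30, a ratio of means of 1370. Ddn, which encodes the dendritic protein dendrin, was at 0.501 to 0.957 RPM at E14 and 459 to 505 at P30, 635 times higher. Fam107a, an actin-associated protein, rose 454-fold and Ptk2b, a calcium-responsive tyrosine kinase, 634-fold. Nrgn (neurogranin, a postsynaptic calmodulin-binding protein), Thy1 (a neuronal surface glycoprotein) and Lynx1 (a modulator of nicotinic receptors) rose 292-, 289- and 536-fold. Mal, another myelin protein, rose 570-fold. The largest changes were picked among genes whose groups did not overlap, as in 75.3% of all genes, so their separation follows from the choice.

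The largest falls were in young neurons and dividing cells. Igfbpl1, a gene of newborn neurons, was at 217, 208, 200 and 209 RPM at E14 and at 0.667, 0.732, 0.22 and 0.526 at P30, 389 times lower. Draxin, a secreted axon guidance protein, fell 321-fold, from 117 ± 11.4 to 0.363 ± 0.334 RPM (SD, n = 4). Cd24a, a surface glycoprotein, fell 93-fold from 788 ± 52.5 RPM. Igf2bp1, an RNA-binding protein of fetal tissues, was at 105 to 158 RPM at E14 and at most 0.175 at P30. The other large falls were of Mki67, Top2a, Cenpf and the histone genes Hist1h3c and Hist1h3g (proliferation), Eomes (intermediate progenitors), Hbb-y (embryonic globin) and Adgrv1, an adhesion receptor, which fell 87.2-fold.

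Genes of cell division fell almost without exception. All 22 genes of the cell cycle and mitosis list fell, with a median log2 change of -5.13 and a range of -7.01 to -3.76, and 24 of 25 DNA replication genes fell, with a median of -3.50. Of all genes tested 13.1% fell. Mki67, the antigen of the Ki-67 proliferation stain, was at 1314, 1489, 1407 and 1660 RPM at E14 and at 10.3, 13.5, 9.67 and 8.6 at P30 (log2 change -7.01 ± 0.113 SE, adjusted p = 1.45e-13). Top2a, a topoisomerase that untangles chromosomes, was at 408 to 530 RPM at E14 and at 2.11 to 4.39 at P30. Ccnb1, the mitotic cyclin B1, was at 59.1 to 86.2 RPM at E14 and at 0 to 0.585 at P30, and its kinase partner Cdk1 fell from 52.6 ± 9.23 to 0.243 ± 0.247. Among replication genes Uhrf1, which guides maintenance methylation, fell 103-fold, Rrm2, a subunit of ribonucleotide reductase, 59.2-fold, and Mcm3 and Mcm2, subunits of the replicative helicase, 41.2- and 34.2-fold. E2f1 was the exception, lower at P30 (log2 change -1.28) without passing the 2-fold test. The summed level of the mitotic list was 3400 to 4500 RPM at E14 and 50.3 to 68.3 at P30.

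Promoters of the mitotic and the replication list differed in the motifs they held, and 3 are shown as examples that contain them, chosen after the matches were seen. Windows of 300 bases, 250 before and 50 after the annotated start, came from RefSeq (GRCm38.p6) and matched 10907 of 13995 protein coding genes tested. The CHR motif (TTTGAA, both strands) was in 13 of 18 mitotic promoters, in 2 of 20 replication promoters and in 11.5% of all promoters. CCAAT (both strands) was in 16 of the 18, in 12 of the 20 and in 38.6% of all. An E2F motif (TTTCCCGC or TTTGGCGC, both strands) was in none of the 18, in 8 of the 20 and in 2.98% of all. CCAAT and CHR matches can share an end base. Below are the 250 bases before the start of Cdk1 (chr10:69352913-69353162, minus strand), Cdc20, an activator of the anaphase-promoting complex (chr4:118437344-118437593, minus strand), and Mcm6, a helicase subunit (chr1:128359706-128359955, minus strand), with CHR and CCAAT (or its complement) in capitals in the first 2 and E2F in the third.
Cdk1: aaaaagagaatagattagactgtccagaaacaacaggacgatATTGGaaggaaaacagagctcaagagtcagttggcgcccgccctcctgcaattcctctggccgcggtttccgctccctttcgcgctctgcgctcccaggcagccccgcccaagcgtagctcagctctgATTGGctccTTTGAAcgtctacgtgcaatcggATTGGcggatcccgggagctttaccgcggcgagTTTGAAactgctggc
Cdc20: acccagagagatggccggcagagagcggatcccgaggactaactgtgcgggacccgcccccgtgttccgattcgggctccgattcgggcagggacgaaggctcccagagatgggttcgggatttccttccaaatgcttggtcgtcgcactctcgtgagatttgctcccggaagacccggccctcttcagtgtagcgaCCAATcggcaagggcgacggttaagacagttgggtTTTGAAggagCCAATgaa
Mcm6: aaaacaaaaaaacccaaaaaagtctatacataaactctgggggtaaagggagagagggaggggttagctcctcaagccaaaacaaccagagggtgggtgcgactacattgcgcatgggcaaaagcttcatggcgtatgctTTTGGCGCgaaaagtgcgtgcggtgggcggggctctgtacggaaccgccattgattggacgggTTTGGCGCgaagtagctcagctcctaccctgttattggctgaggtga
Cdc20 fell 68.7-fold, from 44.8 ± 7.81 to 0.652 ± 0.557 RPM, and Mcm6 22.5-fold, from 115 ± 17.8 to 5.12 ± 1.71. Among all genes that fell, CHR was in 15.4% of promoters and the E2F motif in 6.21%, against 9.71% and 1.55% among genes that rose. A match is a description of the letters and not of binding.

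Most progenitor genes fell, against 13.1% of all genes. Of 18 radial glia genes 13 fell, 1 rose and 4 did not pass the 2-fold test, with a median log2 change of -2.32. Nes, the intermediate filament nestin, was at 306, 407, 418 and 430 RPM at E14 and at 13.5, 12.1, 20.9 and 15.4 at P30, 25.2 times lower. Pax6 and Sox2, transcription factors of neural progenitors, fell 13.2- and 5.06-fold, and Vim, the filament vimentin, 17.2-fold. Sox3 fell 78.4-fold from a low level of 17.5 ± 6.18 RPM. Slc1a3, a glutamate transporter shared by radial glia and astrocytes, went the other way, from 147 ± 6.7 to 596 ± 31.1. Of 12 intermediate progenitor genes 9 fell, 1 rose and 2 did not pass. Eomes, the factor that defines these cells, was at 114, 150, 112 and 166 RPM at E14 and at 0.333, 0.146, 0 and 0.175 at P30, 827 times lower. Neurog2, a proneural factor, fell 89.8-fold, Insm1 17.6-fold and Mfng, a modifier of Notch, 21.4-fold, while Tac2, a neuropeptide gene, rose from 0.155 ± 0.202 to 3.88 ± 0.858.

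Genes of newborn and migrating neurons fell from high levels. The 24 genes of this list summed to 11000 to 12600 RPM at E14 and to 2050 to 2140 at P30. Of them 17 fell and all 24 were lower by the plain test, with a median log2 change of -2.15. Sox11, a factor of postmitotic neuronal differentiation, was at 2352, 2351, 2495 and 2256 RPM at E14 and at 40, 42.9, 36.5 and 41.6 at P30 (log2 change -5.84 ± 0.0605 SE, adjusted p = 7.29e-17). Dcx, the microtubule protein doublecortin needed for migration, fell from 1617 ± 189 to 105 ± 12.9. Dpysl3, a growth cone protein, fell 25.8-fold and Nhlh2, also on the Cajal-Retzius list, 195-fold. Gap43 and Stmn2, both of growing axons, were lower without passing the 2-fold test. Among 24 axon guidance genes 9 fell and 1 rose, where 13.1% of all genes fell and 16.3% rose. The receptors Epha3 and Dcc fell 13.5- and 6.55-fold and the ligand Efnb1 11.1-fold, whereas Robo3, a receptor known from midline crossing, rose from 21.4 ± 3.6 to 82.2 ± 16.8.

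Layer identity genes moved in both directions. Of 18 transcription factors 2 rose and 7 fell, or 3 fell when all 52 libraries shared the fit. Of all genes tested 16.3% rose and 13.1% fell, so the 2 rises and the 3 falls are near those shares, and the 7 falls are above. The other alternatives gave 5 to 7 falls. Mef2c, a factor of postnatal cortical neurons, rose from 160, 131, 121 and 123 RPM to 1231, 1107, 1199 and 1080, and Rorb, the layer 4 factor, from 59.1 ± 10.3 to 276 ± 28.1. Bcl11b and Fezf2, both of subcortical projection neurons, fell 3.27- and 3.56-fold, and Foxp2, a layer 6 factor also expressed in thalamus and striatum, 4-fold. The call was lost for Bcl11b with sex as a covariate (adjusted p = 0.0582) and without E14 library 1 (0.0561), and for Fezf2 and Foxp2 in the fit of all 52 libraries (0.282 and 0.243). Fezf1 was at 10.5, 22.5, 41.5 and 24.6 RPM at E14 and at most 0.526 at P30. Cux2, of the upper layers, and Tbr1 did not pass the 2-fold test (log2 changes 1.10 and -0.63).

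Most genes of the synapse rose. Of 24 genes on the presynaptic vesicle list 23 rose, against 16.3% of all genes, with a median log2 change of 2.99. Their sums were 2060 to 2720 RPM at E14 and 20300 to 21700 at P30. The list also holds the postsynaptic gene Nrgn, which is among the 23 and in the sums. Snap25, a membrane fusion protein, was at 186, 148, 146 and 125 RPM at E14 and at 3572, 3084, 3339 and 3263 at P30. Slc17a7, the vesicular glutamate transporter VGLUT1, rose 46-fold, from 14.8 ± 1.92 to 678 ± 37.6 (adjusted p = 3.08e-15), and Sv2b, a vesicle glycoprotein, 29.6-fold. The gene that did not rise beyond 2-fold was Slc32a1, the vesicular GABA transporter. Of 22 postsynaptic scaffolds and kinases 17 rose and none fell. Camk2a, the alpha subunit of the synaptic calcium kinase, was at 79.7, 77.5, 94.6 and 72.2 RPM at E14 and at 4070, 3226, 3859 and 3392 at P30, 44.9 times higher, and the scaffolds Baiap2, Dlgap3 and Dlgap1 rose 15.1-, 13.2- and 12.6-fold.

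Receptor genes rose in most cases too, against 16.3% of all genes. Of 22 glutamate receptor genes 15 rose and none fell, with a median log2 change of 1.85. Grin2a, the NMDA receptor subunit GluN2A, was at 7.13, 6.44, 4.01 and 6.22 RPM at E14 and at 890 to 1018 at P30, 163 times higher. Grin1, the obligatory subunit, rose 24.9-fold, Grm3, a metabotropic receptor, 20.5-fold, and Grin2c 195-fold from 0.202 ± 0.141 RPM. Gria2, the AMPA receptor subunit that limits calcium entry, was already at 471 ± 90.1 and reached 1010 ± 42.5, within the 2-fold test. Of 17 GABA and glycine receptor genes 15 rose. Gabrd, of extrasynaptic receptors, rose from 0.177 ± 0.175 to 36 ± 3.51 RPM, and Gabra4 and Gabbr2 23.6- and 25.2-fold. Glra2, the fetal glycine receptor subunit, was the gene lower at P30 in this list (log2 change -1.29, plain test only).

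Most genes of excitability and ion gradients rose, against 16.3% of all genes. Of 26 voltage-gated channel genes 20 rose, with a median log2 change of 3.04. Kcna2, an axonal potassium channel, was at 19.1 to 29.5 RPM at E14 and at 642 to 761 at P30, 31.7 times higher. Scn4b rose from 0.148 ± 0.231 to 68.2, 134, 54.7 and 111 RPM, and its P30 order is that of the striatal sum, with libraries 2 and 4 highest. Of 10 chloride and cation transporters 7 rose and 1 fell. The sodium pump subunits Atp1b1 and Atp1b2 rose 26- and 13.7-fold and the calcium pump Atp2b2 22.9-fold, while Slc12a7, a potassium-chloride cotransporter, fell 11-fold.

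**Figure D2:**
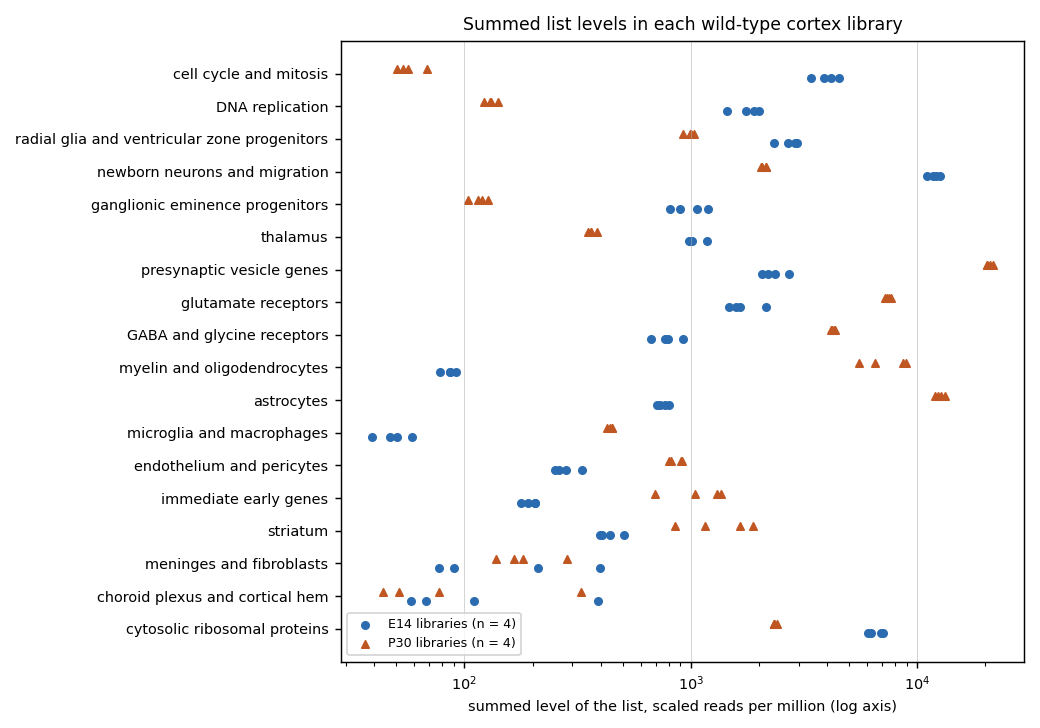
Summed level of 18 gene lists in each of the 8 libraries, in scaled RPM on a log axis, with 1 point per library. E14 and P30 libraries are apart for all lists shown except the meningeal and choroid plexus lists, whose sums overlap.

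For 23 pairs of related genes, the share of the second gene in the pair's level per kilobase of exon was compared. The pairs were chosen as known early and late forms, so the direction is not independent evidence. The share of the late member was higher in all 4 P30 libraries than in all 4 E14 libraries in 18 pairs. Such separation was common, since the levels of 75.3% of all genes tested did not overlap between the ages. In 4 pairs the early gene fell and the late gene rose: Slc17a6 and Slc17a7 (vesicular glutamate transporters), Cbx2 and Cbx7 (Polycomb chromobox proteins), Tubb5 and Tubb4a (beta tubulins), and Tuba1a and Tuba4a (alpha tubulins). The plain test added Scn3a and Scn1a (sodium channels) and Ezh2 and Ezh1 (Polycomb methyltransferases). In 12 pairs the more abundant member differed between the ages.

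The share of Slc17a7 in the glutamate transporter pair was 14.4%, 10.3%, 10.4% and 12.8% at E14 and 95.6% ± 0.785 at P30 (SD, n = 4). Slc17a6 is also a thalamic gene, and it fell from 109 ± 7.64 to 31.3 ± 4.21 RPM, a call lost in the fit of all 52 libraries (adjusted p = 0.126). Ezh1 made up 9.48% ± 1.09 of its pair at E14 and 81.1% ± 0.826 at P30. Ezh2 fell 17.7-fold, and Ezh1 was higher with a log2 change of 1.19 that missed the 2-fold test (adjusted p = 0.0509). The share of Scn1a went from 15.1% ± 2.77 to 79.9% ± 2.68. In the NMDA receptor pair both genes rose, Grin2b 7.31-fold, and Grin2a went from 2.57% ± 0.8 to 36.0% ± 1.61, so Grin2b stayed the more abundant per kilobase. For Slc12a5, the chloride exporter KCC2, and Slc12a2, the importer NKCC1, the share of Slc12a5 was 35.8% to 46.9% at E14 and 80.9% to 86.4% at P30. Slc12a5 rose 10.6-fold and Slc12a2 was 1.47-fold higher. Gabra4 went from 14.4% ± 1.83 to 65.0% ± 4.23 of its pair with Gabra2, which was higher by the plain test only.

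Not all pairs turned. The shares of Scn8a (with Scn2a) and Dpf1 (with Phf10) were lower at P30 in all libraries. In the neuronal BAF pair Actl6a fell 6.96-fold while Actl6b was lower by a log2 change of -0.34, so that the Actl6b share went from 57.7% ± 4.26 to 88.2% ± 1.31 without a rise. Ptbp1 and Ptbp2, splicing repressors, both fell. The alpha tubulins Tuba1a and Tuba4a share 50% and 46.7% of their 100-base stretches with other genes, so the split of reads within that pair is uncertain. The beta tubulins Tubb5 and Tubb4a share 0% by the same count, which covers annotated transcripts only. Globin shares rest on few reads at P30 and are not plotted.

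**Figure D3:**
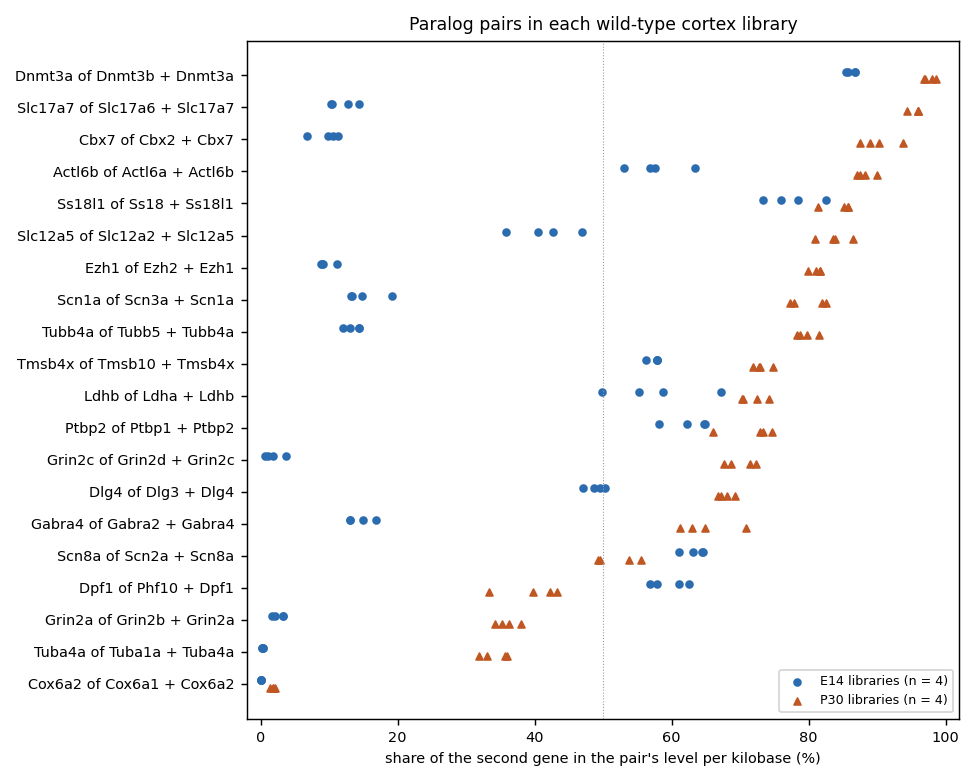
Share of the second-named gene in the summed level per kilobase of 20 paralog pairs, in percent, with 1 point for each of the 4 E14 and 4 P30 libraries. Most pairs lie further right at P30, and those of Scn8a and Dpf1 lie further left.

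Interneuron genes moved in both directions. Of 18 genes 6 rose, 2 fell and 10 did not pass the 2-fold test, where 16.3% of all genes rose and 13.1% fell. The sums overlapped between ages (1340 to 1630 RPM at E14 and 1380 to 1610 at P30). Pvalb, the calcium buffer of fast-spiking cells, had no read in the 4 E14 libraries and was at 24.8, 21.2, 25.9 and 20.2 RPM at P30, at least 303-fold higher when E14 is set at 3 reads over the group. Vip was at 22.8 ± 1.01 at P30 with 2 E14 libraries at 0, Cck rose 40.5-fold, and Calb1 7.1-fold. Lhx6 and Sox6, factors of interneurons from the medial ganglionic eminence, fell 5.01- and 4.55-fold. Gad1 and Gad2, which make GABA, did not pass the 2-fold test (log2 changes 0.65 and -0.51). Of 12 ganglionic eminence genes 11 fell, among them Dlx2 (38-fold) and Nkx2-1 (83.1-fold), and Olig1, shared with oligodendrocyte precursors, rose. E14 library 3 was highest in Nkx2-1, with 89.4 RPM against 46.6 to 60.6 in the others.

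Most glial genes rose, against 16.3% of all genes. All 16 myelin genes rose, with a median log2 change of 4.34, and their sum went from 77.9 to 92.2 RPM at E14 to 8940, 8690, 5560 and 6520 at P30. Mbp, a major myelin protein, rose 87.2-fold, to 1782 ± 306 RPM, and Mag, an adhesion molecule of the inner myelin surface, 507-fold. P30 libraries 1 and 2 were above libraries 3 and 4 in Mobp, Mal, Mbp and Mag. Of 11 oligodendrocyte precursor genes 8 rose. Pdgfra, their growth factor receptor, went from 14.3 ± 6.58 to 71.6 ± 4.75 RPM, Gpr17, of cells about to myelinate, rose 44.4-fold, Sox10 42.9-fold, and Neu4, with no read at E14, at least 87.6-fold.

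Of 17 astrocyte genes 15 rose, against 16.3% of all genes, with a median log2 change of 4.77, the highest of the 41 lists. Aqp4, the water channel of astrocyte endfeet, was at 1.17, 1.74, 1.1 and 1.07 RPM at E14 and at 178, 183, 201 and 233 at P30. Gfap, the astrocyte filament, rose from 0.0998 ± 0.115 to 64.5 ± 4.58, and Sparcl1, a secreted protein that promotes synapses, 36.6-fold. Fgfr3 did not differ (log2 change -0.07, adjusted p = 0.7 by the plain test), and Gja1, a gap junction protein, was at 17.6, 50, 25.4 and 67.6 RPM at E14 against 129 to 145 at P30. At E14 both genes were highest in library 4, as were the meningeal and choroid plexus sums.

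Genes of microglia and some vessel genes rose, and embryonic globins fell, where 16.3% of all genes rose and 13.1% fell. Of 19 microglia and macrophage genes 18 rose, with a median log2 change of 2.77, and their sum went from 39.1 to 58.7 RPM at E14 to 426 to 448 at P30. Csf1r, the growth factor receptor of microglia, was at 7.45, 5.63, 5.11 and 9.92 at E14 and at 80.9, 72.3, 80.9 and 74.1 at P30, and P2ry12, a purine receptor, rose 12-fold. The complement genes C1qa and C1qb rose 16- and 10.4-fold, and C4b, with no read at E14, at least 87.8-fold. Of 18 vessel genes 7 rose. The risers included genes of the blood-brain barrier: Slco1a4, with no read in 3 E14 libraries, reached 77 ± 7.04 RPM, Slco1c1 and Abcb1a rose 14.1- and 13.3-fold, and Ly6c1, of endothelium, rose 247-fold. The other risers were Flt1, Vwf and Rgs5. Genes that did not pass the 2-fold test included Cldn5 and Mfsd2a, also of the barrier. Pecam1, a general endothelial gene, did not pass either (23.1 ± 3.49 RPM at E14 and 26.5 ± 2.24 at P30). Of 6 erythroid genes 4 fell. The embryonic globins Hbb-y and Hba-x were at 60.6 to 136 and 12.2 to 18 RPM at E14, and at P30 a single library had Hbb-y reads, at 0.146 RPM, while Hba-x had none.

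Among regional markers, 7 of 11 thalamic genes fell, where 13.1% of all genes fell and 16.3% rose. Lhx9 fell 121-fold, Zic1 19.5-fold and Tcf7l2, a factor of thalamic neurons, 12.1-fold, and Rora rose from 27.3 ± 2.85 to 218 ± 13.2. Of 13 striatal genes 8 rose, or 5 without E14 library 4. Penk, an opioid peptide gene, was at 1.2 to 2.66 RPM at E14 and at 123, 247, 62.6 and 226 at P30, and Ppp1r1b and Drd1, of dopamine-responsive neurons, rose 24.6- and 11.3-fold with the same order of libraries. Of 10 Cajal-Retzius genes 7 fell, among them Lhx1, at 33.7 to 41 RPM at E14 and at 0 in 3 P30 libraries, and Ebf3, 41.9-fold lower. None of 12 meningeal genes changed beyond 2-fold. In the choroid plexus and hem list 3 of 10 fell, Otx2, Wnt8b and Lmx1a, while Ttr, a secreted product of the plexus, ranged from 0.851 to 228 RPM at E14 and from 9.67 to 253 at P30.

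Among regulators of chromatin and RNA more genes fell than rose, where 13.1% of all genes fell and 16.3% rose. Of 19 BAF subunits 8 fell, with Smarce1 6.28-fold, Smarcc1 3.32-fold and Smarca4, an ATPase, 2.86-fold, and the other ATPase, Smarca2, rose 2.57-fold, a call lost with scaling by total reads. Of 22 DNA methylation and Polycomb genes 10 fell and 2 rose. The rises were of the chromobox genes Cbx6 (4.89-fold) and Cbx7 (5.08-fold). Of 29 RNA-binding regulators 8 fell and 4 rose: Igf2bp2 and Msi1 fell 33.2- and 8.75-fold, and the splicing factors Mbnl2, Rbfox1, Rbfox3 (the NeuN antigen) and Mbnl1 rose 7.74-, 6.48-, 5.34- and 2.39-fold, the last not with scaling by total reads. Of 18 imprinted genes 10 fell. H19, a fetal noncoding RNA, fell 324-fold and Nnat, a membrane proteolipid, from 1472 ± 148 to 51.3 ± 23.8 RPM. Dlk1 was at 1.17, 2.78, 1.76 and 16.3 at P30 against 77.9 to 129 at E14. Meg3, a noncoding RNA of the same imprinted region, rose from 1228, 911, 1084 and 772 RPM to 5362, 4288, 4902 and 4944, Impact 5.84-fold and Snrpn 2.97-fold.

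The cytoskeleton list was balanced, with 6 of 21 genes rising and 6 falling, against 16.3% and 13.1% of all genes. Nefh, the heavy neurofilament, and Map1a, a microtubule protein of mature neurons, rose 34.2- and 18-fold, while Tubb3 and Tubb2b, tubulins of young neurons, fell 4.68- and 17.1-fold.

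Ribosomal protein genes were lower together. Of 38 cytosolic ribosomal protein genes 29 fell, against 13.1% of all genes, and all 38 were lower by the plain test. The median log2 change was -1.55. The sum of the list was 6240, 6930, 6080 and 7030 RPM at E14 and 2340, 2340, 2330 and 2410 at P30. Rpl27 fell 6.18-fold and Rplp0 5.15-fold. Sequence shared with other genes affects 26 of the 38, since at least 10% of their 100-base stretches occur in another gene. Of the 12 others 10 fell.

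Energy genes of both genomes were mostly higher at P30. Of 29 nuclear genes of oxidative phosphorylation, with a median log2 change of 0.35, none fell and, against 16.3% of all genes, 3 rose. They were Cox6a2 (a muscle-type subunit, no read at E14, 4.54 ± 0.682 RPM at P30, at least 59.7-fold), Cox8a (2.96-fold) and Cycs, cytochrome c (2.6-fold, a call lost with scaling by total reads). By the plain test 18 of the 29 were higher and 2 lower, where 36.1% and 44.2% of all genes were. The sum of this nuclear list was 2330 to 2460 RPM at E14 and 3030 to 3210 at P30. All 15 mitochondrially encoded genes rose. For 9 of them, 2 ribosomal RNAs included, the log2 change was 1.24 to 2.27, and their reads were 2.69% ± 0.0877 of the library at E14 and 6.51% ± 0.55 at P30 (SD, n = 4). mt-Co1 rose from 6458 RPM to 18442, and mt-Nd1 from 2928 to 6926. With scaling by total reads 10 of the 15 rose, and mt-Nd1 was among those that did not.

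The other 6 mitochondrial genes are adjacent and stood apart. mt-Co2, mt-Atp8, mt-Atp6, mt-Co3, mt-Nd3 and mt-Nd4l, at positions 7013 to 10173 of the mitochondrial genome (GRCm38), had means of 1.06 to 11.6 RPM at E14, while the other 9 had 918 to 6458. At P30 the same 6 had 192 to 4315, log2 changes of 4.61 to 8.40. Of the 6, 5 share 97.6% to 99.9% of their 100-base stretches with other genes. mt-Atp8 shares 0% and was as low at E14 (1.06 RPM, against 359 at P30). Sharing was counted between annotated transcripts only, so the 0% cannot show that mt-Atp8 lacks a copy in unannotated sequence. Of the 9 others, 7 share under 4%, mt-Co1 shares 30.8% and mt-Nd4 60.8%, and the E14 means of these last 2 were 6458 and 2054 RPM. A nuclear copy of this stretch holds 7 annotated pseudogenes on chromosome 1, from 24611535 to 24616197. Their summed level was 40.8 to 45.8 RPM at E14 and 504, 103, 98.5 and 101 at P30, and none passed the 2-fold test. The deposited tables of E14 and P30 were made separately, and how reads that fit both places were counted is not given in the sources used here. The E14 level of these 6 genes is uncertain, and mt-Atp6, mt-Co3, mt-Co2 and mt-Atp8, which are among the 12 largest rises, carry that limit.

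**Figure D4:**
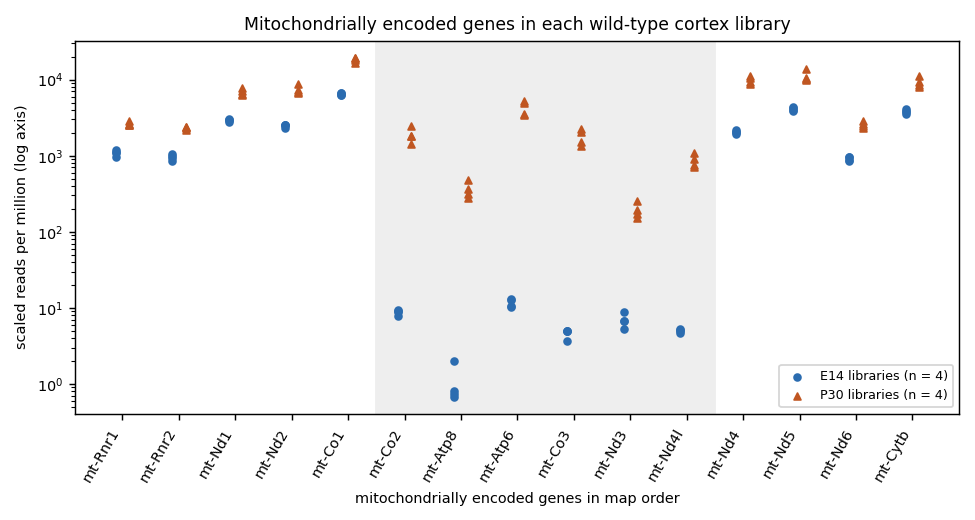
Level of the 15 mitochondrially encoded genes in map order, in scaled RPM on a log axis, with 1 point per library. The 6 genes on the grey band were at 0.681 to 13 at E14, far below their neighbours, and at 151 to 5310 at P30.

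Metabolic and rhythmic genes changed in part, where 16.3% of all genes rose and 13.1% fell. Of 22 glycolysis and lactate genes 10 rose, led by Eno2, the neuronal enolase, from 15.1 ± 2.76 to 439 ± 18.9 RPM, and by Aldoc, Slc16a7 and Slc2a3, the neuronal glucose transporter, at 8.81-, 7.52- and 7.01-fold. Hk2, a hexokinase, fell 3.95-fold. Of 21 cholesterol genes 1 rose, Cyp46a1, the neuronal enzyme that removes cholesterol, 15.1-fold, and none fell. Sqle, an enzyme of the synthesis, was lower by a log2 change of -1.16, short of the 2-fold test. With scaling by total reads 3 genes of this list fell. Of 16 circadian clock genes 12 rose. Npas2, a partner of the clock protein Bmal1, was at 0.702 to 1.6 RPM at E14 and at 104 to 121 at P30, and Hlf, Nr1d1 and Dbp, clock outputs, rose 28.6-, 12.2- and 10.6-fold. The hour of collection is not in the labels.

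Of 18 immediate early genes, which respond to neuronal activity and to handling, 13 rose and 1 fell, against 16.3% and 13.1% of all genes. Egr1 was at 1.91, 2.56, 3.11 and 5.64 RPM at E14 and at 426, 265, 515 and 362 at P30, and Arc, a synaptic activity gene, at 2.43 to 3.58 and at 274, 52.5, 301 and 168. Library 2 was lowest at P30 in Egr1, Arc, Egr3 and Fos. Btg2, also of intermediate progenitors, fell 5.66-fold.

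What the changing genes shared was looked at by gene span and promoter composition, which the test did not use. Of protein coding genes that span under 10 kb 14.5% rose and 16.8% fell, and of those over 300 kb 41.5% rose and 8.76% fell. The median span was 41.6 kb for genes that rose and 21.7 kb for genes that fell, against 26.0 kb for all with a matched promoter. With 0 to 4 CpG in the 300-base promoter window 32.5% of genes rose and 8.04% fell, and with 20 to 29 CpG 13.1% rose and 15.6% fell. The median GC content differed less, 61.0% for genes that rose and 61.7% for genes that fell. Genes are not independent replicates, so these shares carry no test.

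**Figure D5:**
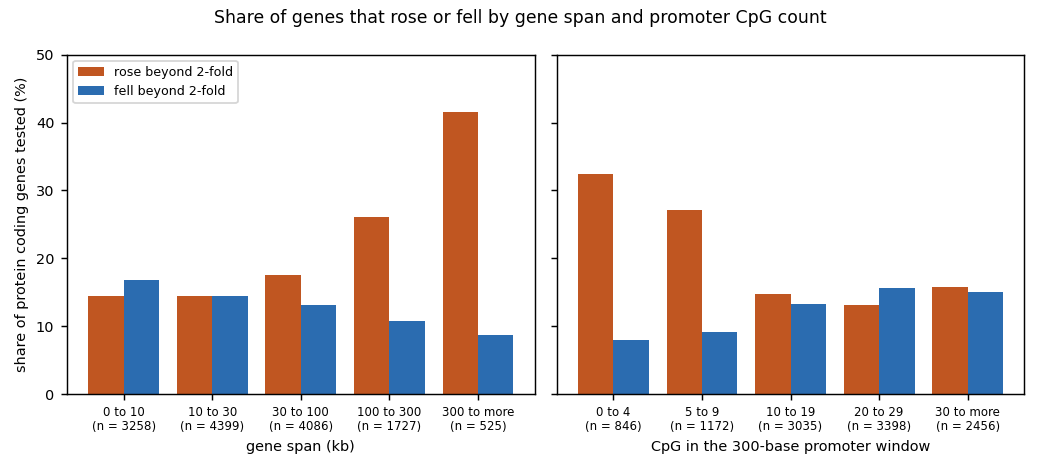
Share of tested protein coding genes that rose (orange) or fell (blue) beyond 2-fold, by gene span in kilobases and by CpG count in the 300-base promoter window, with the number of genes under each pair of bars. The share that rose climbs to 41.5% for spans above 300 kb and to 32.5% for promoters with 0 to 4 CpG.

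The same age comparison in the KO cortex (5 libraries at E14, 4 at P30) called 5220 genes beyond 2-fold (27.5%), of which 15.4% of genes tested rose and 12.1% fell. These libraries are separate from the wild-type ones. Of 5437 wild-type calls tested in the KO, 4827 were also called in the same direction (88.8%, and 93.7% of the 5151 KO calls tested in the wild type), and none had the opposite sign. The test of the difference between the genotypes' age effects called 6 of 19977 genes (0.03%), and 750 had an unadjusted p below 0.05. Pttg1, which encodes securin, was higher at P30 in the wild type (3.47 ± 0.991 to 9.48 ± 1.12 RPM), and in the KO at 19.9 ± 5.29 at E14 it had a log2 change of -3.40, a difference of 4.65 ± 0.249 SE (adjusted p = 6.94e-10). Lmx1b and Foxa1, factors of the ventral midbrain and other regions outside the cortex, were at 5.9 ± 2.63 and 6.17 ± 1.28 RPM in wild-type embryos and at 0.407 ± 0.42 and 0.864 ± 0.743 in KO embryos, and neither exceeded 0.439 in wild-type P30 libraries. Also called were C130021I20Rik, with a log2 difference of -1.78, and 9930111J21Rik2, with 1.86 and no read in the KO at E14. With a pseudocount of 0.1, or with voom, 1 gene was called, and 3 without any 1 of the wild-type E14 libraries. Whether the dissection differed between the embryos was not tested.

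From P30 to P60 (3 wild-type frontal cortex libraries) no gene of 19383 changed beyond 2-fold (0%), by limma-trend or by voom. By the plain test 123 differed (0.635%; 39 higher and 84 lower at P60), 114 by voom, and 2706 had an unadjusted p below 0.05.

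The miR-146a gene itself could not be followed, since Mir146 had no read in the 8 libraries and poly-A libraries do not capture mature microRNAs. Among 18 tested genes of the Toll-like receptor pathway and reported targets, 2 rose and 2 fell, where 16.3% and 13.1% of all genes did. Traf6, a ubiquitin ligase and reported target, fell from 62.5, 73.5, 64 and 68.2 RPM to 25.3, 29.4, 28.6 and 25.8, and Notch1 4.22-fold. The call for Traf6 was lost with median ratio scaling (adjusted p = 0.094) and with sex as a covariate (0.0723). Irak2 rose 18.3-fold. Irak1, the other reported target, was at 45.5 ± 3.78 at E14 and 45.9 ± 5.53 at P30, with overlapping libraries.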

How the data were processed

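Poly-A RNA of 52 libraries in 14 groups was sequenced by the authors; 8 libraries are analysed here, and the KO and P60 cortex libraries enter 2 further comparisons. The deposited values are normalized expression levels per gene and library (totals of 945861 to 1039135, written with decimal commas), in a separate table per age. The submitters' processing notes name limma, DESeq, edgeR and the build mm9 without their roles. No aligner or counter is named there. No column of another series was present (0).

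Deposited values were whole multiples of the value of 1 read within 0.1 read, so reads were recovered, and the 8 libraries were scaled together by trimmed means (TMM). Genes with at least 10 reads at the median depth in 4 libraries and 15 reads in all were tested with limma 3.58.1 (R 4.3.3; limma-trend, robust) on log2(scaled RPM + 1), with Benjamini-Hochberg adjustment at 0.05. A change beyond 2-fold was tested with treat. Fold changes in the text are ratios of mean levels, and log2 changes are on the log2(value + 1) scale, which understates low genes. Genes at 0 in a group have a bound from 3 reads over the group. Depth was 4870435 to 9469214 reads, and intervals cover counting error only where given. Tables and figures used Python 3.11.15, pandas 2.3.3, numpy 2.4.6 and matplotlib 3.10.9.

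Members and lists were chosen with earlier results of these data known. Named genes are the 12 largest changes in each direction (mean of at least 20 RPM in the higher group, no overlap), up to 4 genes per list by size of change and those against its majority, the paralog pairs, the 5 smallest p of the genotype difference, Mir146, Traf6 and Irak1. Further list members and C130021I20Rik were named after their values were seen. Some genes that the rule names are not reported here. Replicates are separate samples in the labels. The test was tested on simulated data for the 8 libraries with 200 genes changed: it called 96% of 2-fold and 100% of 4-fold changes, and beyond 2-fold 88% of 4-fold and 100% of 8-fold ones. Of 18454 unchanged genes 19 were called. The simulation used the same spread for every gene and changed only well-counted genes. In the data 80.3% of genes differed, so these rates may not hold there or for genes with few reads. The planned count tests were not run on the recovered reads, and voom took their place. Limma's voom on recovered reads and leaving out genes with shared sequence were added after seeing the data.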

Additional observations from a re-analysis of the deposited data

Results flagged for a closer look

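In groups of 4, a library was set apart where its gap to the nearest other exceeded Dixon's 95% critical value as a part of the group's range. Of 502 groups of values tested, 29 were so marked (5.78%), and chance flags about 1 in 20 groups.

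Several belonged to P30 library 1. It was lowest in Actl6b (57.5 RPM), Atp1b1 (493), Grin2c (35.7) and Tubb3 (95.4), and highest in Neurog2 (1.5), Npas2 (121) and Smarca4 (292). P30 library 4 was lowest in Dlgap3 (373) and highest in Igf2bp2 (8.25), in Lhx1 (0.526), which had no read in the other 3, and in the summed ribosomal protein genes (2410). P30 library 2 was highest in Otx2 (2.49), Wnt8b (0.439) and Hbb-y (0.146), and it also had the highest choroid plexus sum.

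At E14, library 1 was lowest in Nes (306), Nhlh2 (40.8), Rrm2 (105), mt-Co3 (3.62) and the cholesterol sum (1610), and highest in Atp2b2 (109), Gabbr2 (41.6) and Nr1d1 (12.4). Library 2 was highest in Aqp4 (1.74) and the thalamic sum (1180), and lowest in Dbp (1.53). Library 3 was highest in mt-Atp8 (2.01) and lowest in Slco1c1 (3.81) and the mitochondrial sum (23600). Library 4 was the E14 library with Slco1a4 reads (1.95).

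The age effect differed between wild type and KO in 6 genes. For 5 of them the log2 difference, wild type minus KO, was 4.65 for Pttg1, 1.86 for 9930111J21Rik2, -2.39 for Lmx1b, -2.01 for Foxa1 and -1.78 for C130021I20Rik.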

How the results depend on the processing

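The count of genes that differed was 15003 and ranged from 14343 to 15484 over the alternatives with the filter on low counts and all genes, and from 14697 to 15287 without 1 library. Beyond 2-fold 5490 genes changed, 5188 to 6229 over those alternatives and 5202 to 5496 without 1 library. With the replicate number as a block the counts were 14949 and 5463. The correlations of deviations for equal numbers were 0.018, 0.113, 0.065 and 0.0148, and those for unequal numbers -0.161 to 0.0652. Whether samples of equal number share more than the number was not tested. The genotype difference called 6 genes, 1 with a pseudocount of 0.1, 1 with voom, 6 with the block, and 3 to 7 without 1 library. No gene changed beyond 2-fold from P30 to P60 in any alternative run. Of 3840 values of named genes under the alternatives 3808 kept direction and side of the threshold, 27 lost the call, 5 gained it and 0 reversed. The median of the cytoskeleton list was -0.08 and 0.02 with median ratio scaling. Complement genes that rose went from 6 to 10 with a pseudocount of 0.1. The edgeR and DESeq2 alternatives were not run on the recovered reads, and voom was run in their place. Depth limits genes near 1 RPM, where few reads stand behind a value.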
